A study of Homo sapiens with 4 samples.

Results

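The inhibitory SMADs and feedback repressors of TGFβ signaling were examined in H1-derived cells treated with or without SB431542, a kinase inhibitor of the TGFβ, activin and nodal type I receptors. The group comprised 10 genes, SMAD6, SMAD7, SKI, SKIL, PMEPA1, BAMBI, SMURF1, SMURF2, TGIF1 and TGIF2. They were chosen by gene symbol from the 58365 rows of the deposited expression table, with earlier results of the same SB against DMSO contrast known. Each symbol had 1 row, and all 10 were among the 14909 genes with a mean of at least 1 FPKM in at least 1 group. Since the contrast between SB and DMSO took part in their choice, their differences are given as a description.

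RNA-seq was performed on 4 libraries of cells derived from H1, an established human embryonic stem cell line, at day 8 of hematopoietic differentiation. All cells first received 40 ng/ml activin A and 50 ng/ml BMP4 for 2 days, followed by 40 ng/ml VEGF and 50 ng/ml bFGF for 3 days. During the last 3 days VEGF and bFGF were continued, with DMSO in 2 libraries and with SB431542 (SB) in the other 2. For SB431542, the methods and a figure legend of the study name different last days. The libraries of each group carried the replicate numbers 1 and 2. The study describes sorting of CD31-positive cells, a step that the sample labels do not mention, and 1 cell line underlies every library. The labels do not say whether replicates came from separate cultures, so the spread between them may be technical.

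TGFβ and BMP ligands activate serine/threonine kinase receptors, which phosphorylate receptor-regulated SMADs that enter the nucleus together with SMAD4. Many genes switched on by these complexes act against the pathway itself, as decoy receptors, as competitors for the receptor or for SMADs, as ubiquitin ligases or as nuclear corepressors. In the endothelium from which blood cells emerge, both TGFβ and BMP signals are active, and SMAD6 and SMAD7 are known to be induced by them.

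Replicate number and treatment both separated the libraries. Summed over all genes, FPKM ranged from 570844 to 612614 per library, the number of sequenced fragments is unknown, and the steps of low values placed the shallowest library at 75.6% of the deepest. Transcripts rich in G and C were higher in both libraries of replicate 1, so differences within each replicate number are given as well. In bulk RNA, fewer cells of a type and less RNA per cell cannot be told apart. Endothelial markers summed to between 1563 and 1767 FPKM in all 4 libraries, with PECAM1, which encodes CD31, between 152.6 and 197.1 FPKM. Of these 8 markers, 1 was lower without overlap, as were 16% of all genes tested. This was CDH5, at 272.8 and 245.8 FPKM with DMSO and 223.6 and 202.1 FPKM with SB. Another 2 were higher without overlap, among them CLDN5 (120.6 and 79.4 FPKM with DMSO and 231.1 and 176.6 FPKM with SB). Markers of other cell types also differed between the groups, and their values are given after those of the pathway.

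In the DMSO libraries, the 10 genes spanned a wide range of levels per transcript length. By mean, SMAD6 (266.9 ± 148.4 FPKM, SD, n = 2) and SKI (218.1 ± 227.9 FPKM) were highest, followed by BAMBI (60.5 ± 6.74 FPKM). The SKI libraries overlapped those of SMAD6 and those of BAMBI. PMEPA1, TGIF2, SMAD7, TGIF1 and SMURF2 formed a middle group with means between 21.2 and 30.6 FPKM, in which the libraries of each gene overlapped those of the next. SKIL and SMURF1 were lowest, at means of 9.44 and 8.69 FPKM, and their libraries overlapped as well. The order differed in the SB libraries, in which SKI (184.4 FPKM), SMAD6 (48.7 FPKM) and BAMBI (47.7 FPKM) came first, and PMEPA1 (7.92 FPKM), SMAD7 (5.31 FPKM) and SKIL (2.05 FPKM) came last. SMAD6 overlapped both of its neighbours in that order, and PMEPA1 overlapped SMURF1 and SMAD7, while SKIL lay below all other members in both SB libraries. In SB replicate 2, BAMBI (45.3 FPKM) was above SKI (43.2 FPKM) and SMAD6 (30.5 FPKM).

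**Figure D1:**
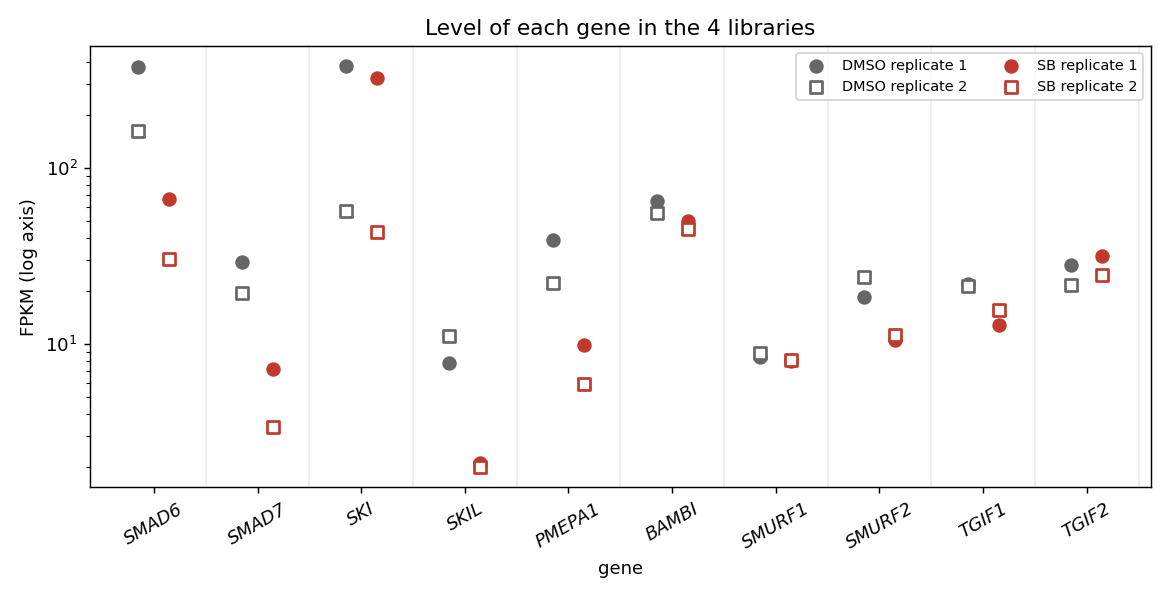
FPKM of the 10 genes in each library (log axis), with grey symbols for DMSO and red symbols for SB, filled circles for replicate 1 and open squares for replicate 2. SMAD6, SMAD7, SKIL and PMEPA1 show the widest gaps between the groups, whereas the SKI values separate by replicate number.

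Of the 10 genes, 8 had both SB libraries below both DMSO libraries, a pattern found in 16% of all genes tested. A log2 difference of -1 or less on the log2(FPKM + 1) scale was seen in 4 members (SMAD6, SMAD7, SKIL and PMEPA1) and in 2.16% of all genes. With limma by group only and Benjamini-Hochberg adjustment over all genes tested, 0 of the 10 passed a threshold of 0.05, against 0.134% of all genes. Their adjusted p in limma ranged from 0.0983 to 0.980. An unadjusted p under 0.05 was seen in 6 of the 10 and in 1485 of all genes. With the replicate number as a block in limma, 6 of the 10 and 1564 of all genes passed the adjustment. The labels do not say what a replicate number shares. The median difference of the members was -0.73, beside 0.04 over all genes. Within both replicate numbers 9 members were lower with SB, as were 30.6% of all genes tested, and TGIF2 was higher in both. Since the contrast entered the choice of the genes, nothing is read from these shares.

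**Figure D2:**
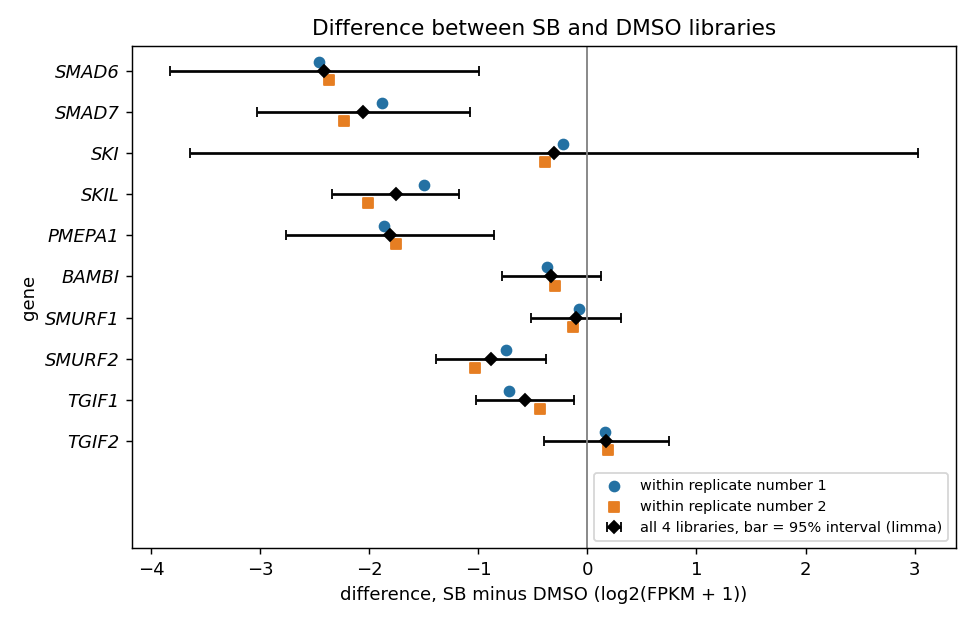
Difference between SB and DMSO libraries in log2(FPKM + 1) for each gene, with diamonds for all 4 libraries, bars for the 95% interval of limma, circles for replicate number 1 and squares for replicate number 2. SMAD6, SMAD7, SKIL and PMEPA1 lie below -1 in both replicate numbers, and the interval of SKI runs from -3.64 to 3.03.

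The reference promoters of the 4 members with the largest differences are shown because SMAD complexes bind short elements in DNA and the 4 genes were all lower with SB. Each sequence is the RefSeq window farthest upstream for its gene (build GRCh38.p14), covering 250 bases before the transcription start and 50 after it, written 5′ to 3′ along the gene. Capitals mark the SMAD element CAGAC (or GTCTG on the other strand), the full palindrome GTCTAGAC or the GC-rich SMAD element GGCGCC.

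SMAD6 promoter, chr15:66701986-66702285, plus strand: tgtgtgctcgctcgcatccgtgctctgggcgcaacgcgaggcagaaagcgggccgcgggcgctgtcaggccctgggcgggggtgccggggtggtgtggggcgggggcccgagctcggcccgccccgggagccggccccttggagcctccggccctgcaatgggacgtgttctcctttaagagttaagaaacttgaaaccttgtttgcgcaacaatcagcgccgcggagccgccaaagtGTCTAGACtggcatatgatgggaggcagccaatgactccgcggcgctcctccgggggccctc

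SMAD7 promoter, chr18:48950916-48951215, minus strand: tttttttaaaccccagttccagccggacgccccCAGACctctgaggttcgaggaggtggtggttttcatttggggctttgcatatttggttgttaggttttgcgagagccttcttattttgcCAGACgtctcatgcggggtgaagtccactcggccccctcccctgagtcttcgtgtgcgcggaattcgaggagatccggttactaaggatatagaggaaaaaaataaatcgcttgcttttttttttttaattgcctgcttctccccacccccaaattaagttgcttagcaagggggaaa

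SKIL promoter, chr3:170357465-170357764, plus strand: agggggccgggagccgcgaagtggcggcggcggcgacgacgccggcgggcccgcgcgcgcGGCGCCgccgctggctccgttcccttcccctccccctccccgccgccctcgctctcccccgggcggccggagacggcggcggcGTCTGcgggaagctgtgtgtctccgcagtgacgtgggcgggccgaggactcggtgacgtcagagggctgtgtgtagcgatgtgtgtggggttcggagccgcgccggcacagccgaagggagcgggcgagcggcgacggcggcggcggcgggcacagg

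PMEPA1 promoter, chr20:57711423-57711722, minus strand: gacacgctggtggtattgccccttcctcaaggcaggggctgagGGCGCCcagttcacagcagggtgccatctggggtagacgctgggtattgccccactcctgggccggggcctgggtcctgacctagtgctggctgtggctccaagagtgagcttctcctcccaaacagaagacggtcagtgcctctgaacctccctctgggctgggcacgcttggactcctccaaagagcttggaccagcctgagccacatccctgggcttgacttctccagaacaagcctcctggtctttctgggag

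The full palindrome began 12 bases before the start of SMAD6 and was present in 0.202% of all 35116 promoter windows of this length. The window of SMAD7 held the CAGAC element at 217 and 128 bases before the start. That of SKIL held GGCGCC at 190 bases and the CAGAC element at 107 bases before the start, and that of PMEPA1 held GGCGCC at 207 bases before the start. The PMEPA1 windows not shown each held the CAGAC element. Of the SMAD7 windows not shown, that at chr18:48949284-48949583 held it and that at chr18:48942758-48943057 did not. The SMAD7 window shown lies upstream of the locus of its row in the expression table (chr18:48919853-48950711). Windows were found for 9 of the 10 members, 21 windows in all, since PMEPA1, SMAD7, TGIF1 and TGIF2 have several. The CAGAC element, searched on both strands, was in 14 of the 21 windows (66.7%) and in 45.3% of all windows. GGCGCC was in 5 of the 21 (23.8%) and in 19.2% of all. Windows of 1 gene can overlap and count the same element again, as for TGIF1, which alone has 7 windows, and TGIF2. By gene, 7 of the 9 members held the CAGAC element in some window and 4 of the 9 held GGCGCC. Nothing is read from these shares. The AP-1 element TGAGTCA, likewise searched on both strands, was in 0 of the 21 and in 4.95% of all. A match is a description of letters and says nothing about binding in these cells.

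SMAD6 and SMAD7 are the inhibitory SMADs, which bind activated receptors and recruit ubiquitin ligases to them. SMAD6 acts mainly on the BMP branch, and SMAD7 acts on both branches. SMAD6 (ENSG00000137834.14, chr15:66702228-66782848, plus strand) stood at 371.9 and 161.9 FPKM with DMSO and at 66.9 and 30.5 FPKM with SB. Both SB libraries were below both DMSO libraries, although the replicates of each group also differed from each other by 2.30-fold with DMSO and 2.19-fold with SB. The difference was -2.41 (SE 0.54, 95% interval -3.83 to -0.998), with -2.46 within replicate number 1 and -2.37 within replicate number 2. In plain FPKM, SMAD6 was 5.56-fold lower with SB within replicate number 1 and 5.30-fold lower within replicate number 2. SMAD6 was at rank 29 of 14909 genes counted from the lowest difference and at rank 469 by mean level.

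SMAD7 (ENSG00000101665.8, chr18:48919853-48950711, minus strand) stood at 29.3 and 19.6 FPKM with DMSO and at 7.23 and 3.40 FPKM with SB. The groups did not overlap, and in each group replicate 1 was the higher library, as for SMAD6. The difference was -2.05 (SE 0.37, 95% interval -3.03 to -1.08), with -1.88 and -2.23 within replicate numbers 1 and 2. The ratio of SMAD6 to SMAD7 was 12.7 and 8.25 in the DMSO libraries and 9.25 and 8.97 in the SB libraries, so the SB ratios lay inside the range of the DMSO ratios.

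The SMADs that carry the signal did not show this gap. SMAD6 and SMAD7 together summed to 401.2 and 181.6 FPKM in the DMSO libraries and to 74.1 and 33.9 FPKM in the SB libraries. SMAD1, SMAD2, SMAD3, SMAD4, SMAD5 and SMAD9 together summed to 101.5 and 104.5 FPKM with DMSO and to 105.1 and 105.4 FPKM with SB. The inhibitory transcripts were therefore 3.95 and 1.74 times the others with DMSO and 0.705 and 0.322 times the others with SB. None of these 6 SMAD genes passed the adjustment in limma (0 of 6, median difference -0.10, or 0.01 without SB replicate 2), with 0 at an unadjusted p under 0.05. SMAD9 had the smallest p of them, at 1.36 and 1.55 FPKM with DMSO and 0.762 and 0.724 FPKM with SB, and SMAD2 was next, at 25.8 and 30.8 FPKM with DMSO and 30.4 and 38.7 FPKM with SB.

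**Figure D3:**
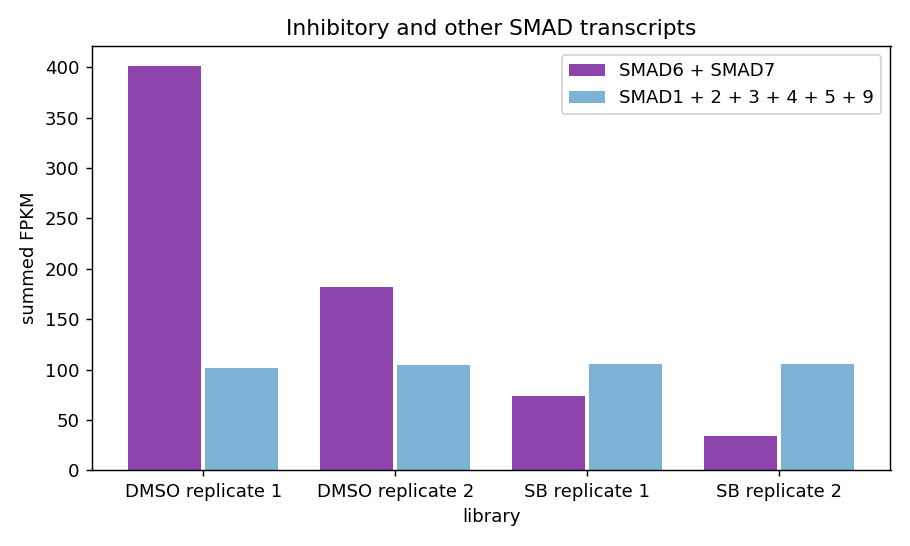
Summed FPKM of SMAD6 and SMAD7 (purple) and of SMAD1, SMAD2, SMAD3, SMAD4, SMAD5 and SMAD9 (blue) in each library, with axes from 0. The purple bars range from 33.9 to 401.2 FPKM, and the blue bars stay between 101.5 and 105.4 FPKM.

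PMEPA1 and BAMBI act at the membrane. PMEPA1 encodes a membrane protein that sequesters receptor-regulated SMADs and is itself a target of TGFβ signaling. PMEPA1 (ENSG00000124225.15, chr20:57648392-57711536, minus strand) stood at 39.0 and 22.2 FPKM with DMSO and at 9.95 and 5.90 FPKM with SB. Both SB libraries lay below both DMSO libraries, and replicate 1 was again the higher of each group. The difference was -1.81 (SE 0.37, 95% interval -2.76 to -0.86), with -1.87 and -1.75 within replicate numbers 1 and 2. The antisense gene NKILA, which overlaps PMEPA1, was listed at 3.00 and 1.78 FPKM with DMSO and at 0.906 and 1.005 FPKM with SB. Strand use in counting is not given in the sources used here, so reads in the 1354 bases shared by the 2 loci cannot be told apart. LDLRAD4, a relative of PMEPA1 with a similar function, was at 9.77 and 7.81 FPKM with DMSO and at 15.2 and 13.3 FPKM with SB, a difference of 0.64 (0.59 and 0.70 within replicate numbers 1 and 2) that did not pass the adjustment in limma (adjusted p = 0.373).

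BAMBI encodes a pseudoreceptor that lacks a kinase domain and blocks the assembly of active receptors. BAMBI (ENSG00000095739.10, chr10:28677342-28682939, plus strand) stood at 65.2 and 55.7 FPKM with DMSO and at 50.2 and 45.3 FPKM with SB. The groups did not overlap, but the gap between the nearest libraries of the 2 groups was smaller than the distance between the DMSO libraries. The difference was -0.33 (SE 0.17, 95% interval -0.78 to 0.12), with -0.37 and -0.29 within replicate numbers 1 and 2, and its interval includes 0.

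SKI and SKIL are nuclear corepressors that bind SMAD complexes and recruit histone deacetylases, and SKIL (also called SnoN) is induced by TGFβ. SKIL (ENSG00000136603.13, chr3:170357678-170396835, plus strand) stood at 7.77 and 11.1 FPKM with DMSO and at 2.10 and 2.00 FPKM with SB. The SB libraries lay close together and below both DMSO libraries, and replicate 2 was the higher of the DMSO libraries, unlike for SMAD6, SMAD7 and PMEPA1. The difference was -1.76 (SE 0.22, 95% interval -2.34 to -1.17), with -1.50 and -2.01 within replicate numbers 1 and 2. The adjusted p of SKIL in limma was 0.0983, the lowest of the 10 members.

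SKI separated by replicate number and not by treatment. SKI (ENSG00000157933.9, chr1:2228695-2310119, plus strand) stood at 379.2 and 56.9 FPKM with DMSO and at 325.5 and 43.2 FPKM with SB. Replicate 1 was 6.67-fold above replicate 2 with DMSO and 7.53-fold above it with SB, at rank 35 of 14909 genes by the difference between replicate numbers, and the groups overlapped. The pooled difference was -0.30 (SE 1.28, 95% interval -3.64 to 3.03), while the differences within replicate numbers 1 and 2 were -0.22 and -0.39. The difference turned to 1.05 when DMSO replicate 1 was left out and to 1.14 when SB replicate 2 was, so its direction depended on which library was left out. The ratio of SKI to SKIL, at 48.8 and 5.12 with DMSO and 154.8 and 21.6 with SB, carried the same split by replicate number. Within each replicate number this ratio was higher with SB, although the groups overlapped.

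The replicate difference was related to base composition across the whole table. In the decile of genes with the lowest transcript GC content, the median of replicate 1 minus replicate 2 was -0.36 with DMSO and -0.25 with SB on the log2(FPKM + 1) scale. In the decile with the highest GC content it was 0.59 and 0.46. SKI, with 62.3% GC, lay in this top decile, but its own replicate differences of 2.72 and 2.88 were larger than the median there. SMAD6 (60.7% GC), PMEPA1 (57.2%) and SMAD7 (56.6%) were higher in replicate 1 of both groups. SKIL and SMURF2, with 39.7% and 41.3% GC, had replicate differences of -0.47 and -0.36 with DMSO, but of 0.05 and -0.08 with SB. The median difference between SB and DMSO moved little with GC content, from 0.07 in the lowest decile to -0.04 in the highest. The part of base composition in the single values was not tested.

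**Figure D4:**
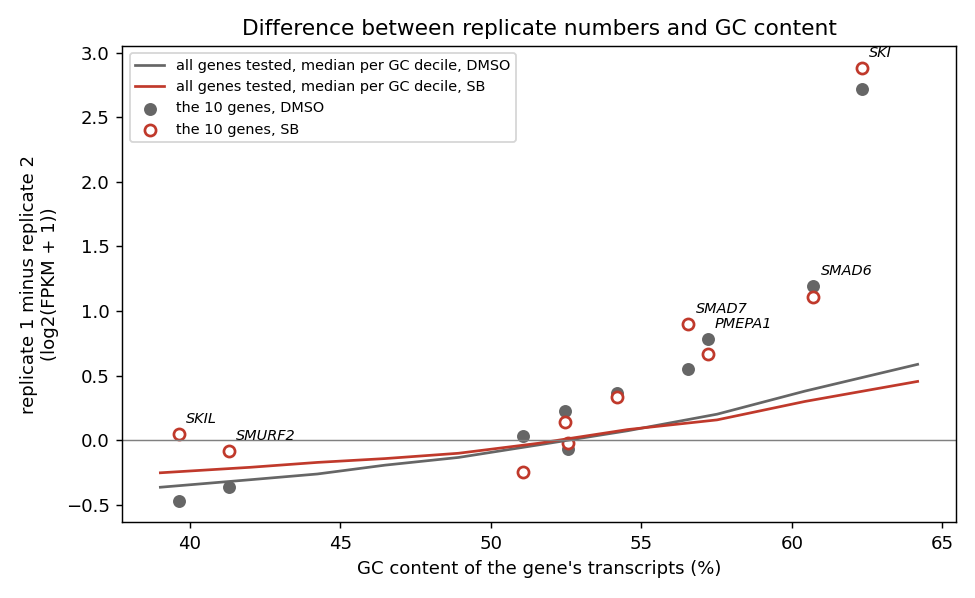
Replicate 1 minus replicate 2 in log2(FPKM + 1) against the GC content of each gene's transcripts in percent, with lines for the median of all genes tested in each GC decile (grey, DMSO; red, SB) and points for the 10 genes. SKI lies at 2.72 and 2.88, far above both lines, and SMAD6, SMAD7 and PMEPA1 also lie above them.

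SMURF1 and SMURF2 are ubiquitin ligases that inhibitory SMADs bring to receptors and SMADs. SMURF2 (ENSG00000108854.15, chr17:64542295-64662068, minus strand) stood at 18.4 and 23.9 FPKM with DMSO and at 10.6 and 11.2 FPKM with SB, with no overlap. The difference was -0.88 (SE 0.20, 95% interval -1.39 to -0.38), with -0.74 and -1.03 within replicate numbers 1 and 2. SMURF1 (ENSG00000198742.9, chr7:99027438-99144100, minus strand) stood at 8.46 and 8.92 FPKM with DMSO and at 7.97 and 8.08 FPKM with SB. The SMURF1 groups did not overlap but lay close together, with a difference of -0.10 (SE 0.16, 95% interval -0.52 to 0.31) and values of -0.08 and -0.13 within replicate numbers 1 and 2. SMURF1 overlaps TRRAP on the opposite strand over 23394 bases, and reads there cannot be told apart either. TRRAP was at 12.0 to 15.5 FPKM in the 4 libraries. The ratio of SMURF2 to SMURF1 was 2.17 and 2.68 with DMSO and 1.33 and 1.39 with SB, without overlap between the groups.

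TGIF1 and TGIF2 are homeodomain proteins that compete with coactivators for SMAD complexes. TGIF1 (ENSG00000177426.20, chr18:3411608-3459978, plus strand) stood at 21.8 and 21.3 FPKM with DMSO and at 12.9 and 15.5 FPKM with SB, with no overlap. The difference was -0.57 (SE 0.17, 95% interval -1.03 to -0.12), with -0.72 and -0.43 within replicate numbers 1 and 2. TGIF2 (ENSG00000118707.9, chr20:36573488-36593950, plus strand) stood at 28.1 and 21.6 FPKM with DMSO and at 31.5 and 24.8 FPKM with SB. The TGIF2 groups overlapped, with a difference of 0.17 (SE 0.22, 95% interval -0.40 to 0.75) and values of 0.16 and 0.19 within replicate numbers 1 and 2. The ratio of TGIF2 to TGIF1 was 1.29 and 1.01 with DMSO and 2.44 and 1.60 with SB, and the groups did not overlap. A readthrough gene that spans TGIF2 was listed at 0.397 to 1.03 FPKM, and 4 genes named as relatives or pseudogenes of TGIF1, TGIF2 and SMURF2 were listed at 0.254 FPKM or less.

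The genes with profiles most like those of the 4 members with the lowest differences were sought over the 4 libraries, by the Euclidean distance between log2(FPKM + 1) values centred on each gene's mean. Nearest to SMAD6 were NGFR (distance 0.126), the pseudogene AL645949.1 (0.412) and NKX2-5 (0.511), a cardiac transcription factor. SMAD7 was nearest to ENC1 (0.262), HBZ (0.344) and NKX2-5 (0.344), and PMEPA1 to GATA4 (0.136), ENC1 (0.160) and NKX2-5 (0.259). SKIL was nearest to EMP1 (0.213), the pseudogene AC011933.1 (0.225) and EDN1 (0.269). NKX2-5, which appeared in 3 of these lists, stood at 45.3 and 21.9 FPKM with DMSO and at 10.4 and 5.23 FPKM with SB. EMP1 stood at 25.7 and 35.5 FPKM with DMSO and at 7.16 and 8.62 FPKM with SB, higher in replicate 2 of each group. Among the members themselves, SMAD7 and PMEPA1 were nearest to each other (0.338), with 1 other gene nearer to SMAD7 and 9 nearer to PMEPA1. SKIL stood apart, since its nearest member was SMURF2 (0.879), with 170 other genes nearer.

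The pathway around the repressors was described with 8 lists of 110 symbols, of which 107 were found in the expression table and 90 were tested. The symbols not found are other names of genes already listed. In limma, 0 of the 90 passed the adjustment upward and 1 passed downward, beside 0.134% of all genes in either direction. That gene was TGFBI, a matrix protein induced by TGFβ, which fell from 29.7 and 31.0 FPKM to 4.10 and 4.93 FPKM, a difference of -2.51, with -2.59 and -2.43 within replicate numbers 1 and 2 (limma adjusted p = 0.0365). TGFBI no longer passed when any of the 4 libraries was left out. The list of SMAD2/3 targets had 1 of 18 tested genes past the adjustment downward and 0 upward. At an unadjusted p under 0.05 in limma, 9 of its genes were lower and 1 was higher, beside 1485 of the 14909 genes tested in either direction. Its median difference was -0.80, with a range from -2.51 to 1.19. HAND1, the next gene of the list, was at 11.6 and 11.1 FPKM with DMSO and 2.34 and 1.98 FPKM with SB.

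The BMP and SMAD1/5 targets had 0 of 9 tested genes past the adjustment, 7 with an unadjusted p under 0.05 and a median difference of -0.87. All 9 were lower with SB within both replicate numbers. Of all 14909 genes tested, 30.6% were lower in this way, and 1485 had an unadjusted p under 0.05 in limma. HEY2 was at 21.2 and 22.2 FPKM with DMSO and 6.07 and 6.17 FPKM with SB. ID1, a direct target of BMP signaling, was at 470.2 and 505.1 FPKM with DMSO and 178.9 and 186.8 FPKM with SB. Neither gene overlapped between the groups.

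Upstream of the SMADs, 0 of 11 receptors passed the adjustment, with a median difference of -0.06. An unadjusted p under 0.05 in limma was seen in 2 of them, beside 1485 of the 14909 genes tested. ENG, a coreceptor of endothelial cells, was at 64.2 and 47.9 FPKM with DMSO and 17.8 and 14.7 FPKM with SB, and BMPR2 was at 9.26 and 12.9 FPKM with DMSO and 5.91 and 6.92 FPKM with SB. Of the 8 ligands tested, 0 passed the adjustment and 4 had an unadjusted p under 0.05, with a median of -0.53. BMP4 was at 17.7 and 14.4 FPKM with DMSO and 5.49 and 5.04 FPKM with SB, and TGFB2 was at 8.96 and 7.58 FPKM with DMSO and 3.51 and 1.05 FPKM with SB. Neither ligand overlapped between the groups. The ligand median moved to -0.84 when DMSO replicate 2 was left out and to -0.81 when SB replicate 1 was, and that of the receptors was 0.14 without DMSO replicate 2.

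The partners through which the repressors work had medians near that of all genes. Among the ubiquitin enzymes that act with SMAD7 or on SKI and SKIL, 0 of 13 passed the adjustment and 0 had an unadjusted p under 0.05, and the median was 0.04, with either sign when a library was left out (-0.04 without DMSO replicate 1 to 0.12 without SB replicate 1). UCHL5 (difference 0.30) and WWP2 (0.44) had the smallest p of that list. Among the corepressor partners of SKI, SKIL and TGIF, 0 of 12 passed and 0 had an unadjusted p under 0.05, and the median was 0.14. NCOR1 (0.26) and SIN3A (0.16) led that list. Among the other intracellular brakes, 0 of 13 passed and 1 had an unadjusted p under 0.05 in limma, beside 1485 of the 14909 genes tested. Their median was 0.09, with LDLRAD4 (0.64) and YAP1 (-0.41) in front.

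**Figure D5:**
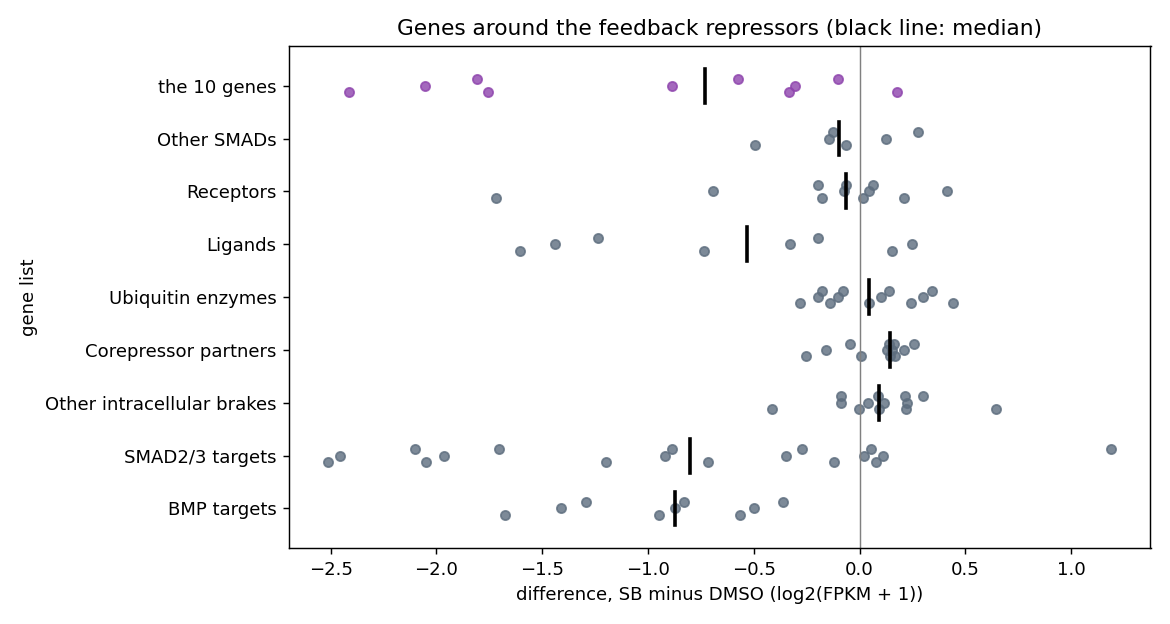
Difference between SB and DMSO libraries in log2(FPKM + 1) for each tested gene of the 10 repressors (purple) and of the 8 pathway lists (grey), with black lines at the medians. The medians of the repressors (-0.73), SMAD2/3 targets (-0.80), BMP targets (-0.87) and ligands (-0.53) lie left of 0, and those of the other lists lie between -0.10 and 0.14.

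Markers of other cell types moved with the groups. Of all genes tested, 16% were lower without overlap, and the share higher without overlap was not computed. PTPRC and SOX2 are counted below as higher and TNNT2 as lower, although each was below 1 FPKM in every library. The lists were written with earlier results of these data known, so nothing is read from the counts. Mesenchymal markers summed to 257.5 and 199.4 FPKM with DMSO and to 91.7 and 78.3 FPKM with SB, with 6 of 8 lower without overlap and DCN below 1 FPKM in every library. Endoderm and liver markers summed to 282.3 and 320.4 FPKM with DMSO and to 29.6 and 32.7 FPKM with SB, with 6 of 8 lower and ALB below 1 FPKM. Epithelial markers summed to 255.4 and 251.3 FPKM with DMSO and to 116.4 and 123.9 FPKM with SB, with 6 of 6 lower. Smooth muscle markers summed to 66.7 and 72.2 FPKM with DMSO and to 39.5 and 41.4 FPKM with SB, with 3 of 4 lower and MYH11 below 1 FPKM. The mesenchymal marker COL1A1 and the smooth muscle marker TAGLN are also on the list of SMAD2/3 targets, so their differences enter both descriptions. Hematopoietic markers summed to 374.0 and 319.6 FPKM with DMSO and to 655.6 and 548.0 FPKM with SB, with 8 of 8 higher and PTPRC below 1 FPKM. The globin gene HBZ, which is not on this list, was lower, at 145.7 and 109.5 FPKM with DMSO and 33.2 and 24.1 FPKM with SB. Cardiac markers summed to 119.8 and 116.4 FPKM with DMSO and to 103.3 and 117.6 FPKM with SB, but 5 of 6 were lower without overlap, NKX2-5 and ACTC1 among them, and MYL4 was higher (61.5 and 79.5 FPKM with DMSO, 91.8 and 111.1 FPKM with SB), with TNNT2 below 1 FPKM. Pluripotency markers summed to 69.8 and 89.3 FPKM with DMSO and to 93.6 and 114.5 FPKM with SB, with 3 of 5 higher and 0 lower, and NANOG and SOX2 below 1 FPKM. No marker of these lists was at 0 in all libraries, and the part of these markers in the differences of the repressors was not tested.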

How the data were processed

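RNA-seq values of 4 libraries were deposited by the authors as FPKM (fragments per kilobase of transcript, scaled to mapped fragments), with 1 row per gene and locus. The submitters' processing notes name BWA, Bowtie, RSEM and hg19. The loci of the table matched GRCh38 instead (95.5% of identifiers had the same version in GENCODE release 29, and 99.8% of these the same position), so positions are given on GRCh38, counted from 1. SMAD7 has another version there. Scaling between libraries is not given in the sources used here.

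Values were transformed to log2(FPKM + 1), which understates the differences of low genes. Genes with a mean of at least 1 FPKM in at least 1 group entered a comparison of the groups by limma 3.58.1 under R 4.3.3 (empirical Bayes with trend, group only, two-sided, Benjamini-Hochberg adjustment, threshold 0.05). An exact permutation test of 2 against 2 libraries cannot give a p below 0.333 and was not used. P-values measure only the spread between these libraries. The fit was tested on simulated data.

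The members and gene lists were chosen with earlier results of these data known. Named genes are the 10 members, the 3 nearest profiles of each member with a difference of at least 1 in size, and the 2 genes of each list with the smallest p. NKILA, TRRAP and the cell type markers were named after their values were seen. Other settings tried were a block for the replicate number, other filters, pseudocounts and scalings, a GC correction and the removal of each library. Figures were drawn with matplotlib 3.10.9.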

Additional observations from a re-analysis of the deposited data

How the results depend on the processing

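Across 12 alternatives, 102 of the 120 values of the 10 members kept their direction and their side of the threshold, 15 moved past the threshold in the same direction and 3 reversed, all 3 on removal of a library. SKI reached 1.05 once DMSO replicate 1 was removed and 1.14 once SB replicate 2 was (range -1.75 to 1.14), and TGIF2 was -0.00874 without DMSO replicate 2 (range to 0.358). On removal of single libraries SMAD6 ranged from -3.01 (without DMSO replicate 2) to -1.82 (without DMSO replicate 1), SMAD7 from -2.51 (without SB replicate 1) to -1.60 (without SB replicate 2), SKIL from -1.99 (without DMSO replicate 1) to -1.52 (without DMSO replicate 2) and PMEPA1 from -2.20 (without DMSO replicate 2) to -1.42 (without DMSO replicate 1).

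With the replicate number as a block, 1564 genes, 6 members and 28 list genes passed in limma, against 20, 0 and 1 without it. Whether the numbers pair the libraries was not established: the labels do not say what a number shares, and with only 2 pairs the deviations of libraries with the same number had r = 0.53 across genes. With a GC correction, chosen after seeing the data, 154 genes, 2 members and 9 list genes passed, and with that correction and the replicate block 1521, 7 and 26. Quantile normalization gave 31 genes and 3 list genes. Without a filter, 0 genes passed in limma (2739 at an unadjusted p under 0.05) and 0 list genes. On removal of single libraries between 0 and 14 genes passed (0 without DMSO replicate 1, with 1168 at an unadjusted p under 0.05), and 0 list genes. The median difference of the ligands was -0.92 with a pseudocount of 0.1 and -0.82 with at least 5 FPKM in at least 2 libraries, and that of the ubiquitin enzymes was -0.03 with the GC correction. The medians of the 6 SMADs, the receptors and the ubiquitin enzymes changed sign on removal of a library. The cause of these shifts was not tested. The number of fragments is unknown, so the counting error of low values could not be given.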
